A study of Rattus norvegicus with 12 samples.

Results

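The effect of chronic stress on hippocampal RNA was taken from 6 of the 12 libraries of the series, 3 from stressed and 3 from unstressed Sprague Dawley rats, both given saline. CUMS-Sal rats went through chronic unpredictable mild stress for 5 weeks, with saline for 7 days in the last week, and Ctrl-Sal rats were not stressed and also had saline. All are labelled 6 to 7 weeks old, and the labels do not say at which point of the procedure. The other 6 libraries, from stressed rats given fluoxetine (CUMS-Flx) or albiflorin (CUMS-Alb), entered the fit to share its estimate of the spread. They also counted in every mean over the 12 libraries used below, such as the one that set the rows tested. Values are FPKM, reads per gene scaled by its length and by the library's total. Of 28959 rows, 15253 had a mean of at least 0.5 FPKM over the 12 libraries and were tested. Just inside that limit lay a row at 0.5008 and just outside it one at 0.4999 FPKM, and 7484 rows above 0 fell below it.

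Unpredictable mild stress is a rodent procedure in which changing mild stressors are used to model depression. The hippocampus carries many receptors for glucocorticoids, the hormones released in stress, and takes part in shutting off that response. Neurons of this region depend heavily on mitochondria, whose own DNA encodes a small set of very abundant mRNAs for subunits of the respiratory chain and ATP synthase.

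The deposited table gives Ensembl IDs or running numbers without gene names, and 0 of its IDs matched the reference used here. The 37 gene lists drawn up for pathways and cell types could therefore not be applied, and the hippocampal origin was not checked by markers. Genes are described by level, by length and by library, with the ID of 2 genes in each direction. Whether a lower value means fewer cells of a type or less RNA per cell cannot be told apart in bulk tissue. Nothing in the labels says that replicates are separate rats, so p-values measure only how these libraries spread, and that spread may be technical. In limma that spread is pooled over all groups, those given a drug included.

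Libraries held 14735953 to 18109623 reads, recovered from the FPKM steps. Ctrl-Sal replicate 2 stood apart from both other controls. Its median absolute log2 difference was 0.198 from Ctrl-Sal replicate 1 and 0.216 from replicate 3, against 0.119 between those 2 and 0.116 to 0.133 among the CUMS-Sal libraries. Several results below are therefore also given without it. The splits of the calls by gene length and by level are not.

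The most abundant mRNAs took a smaller share of the reads after stress. They are 9 genes of 681 to 1830 bp that each held over 1% of the reads, and the definition of this comparison describes them as mitochondrial mRNAs, which could not be checked by name. Together they held 20.39, 22.03 and 17.44% of the reads in Ctrl-Sal replicates 1 to 3 and 14.79, 14.75 and 15.04% in CUMS-Sal. Every control library lay above every stressed one, and the controls differed among themselves by more than the stressed libraries did. The means were 19.95% ± 2.32 and 14.86% ± 0.157 (SD, n = 3), a difference of -5.09 percentage points (two-sided exact permutation test, p = 0.1, which is the lowest value 3 against 3 can give, and 0.1 after Benjamini-Hochberg adjustment over 2 such tests). Without Ctrl-Sal replicate 2 the difference was -4.06. In CUMS-Flx the share was 18.83, 15.53 and 15.26%, and in CUMS-Alb 14.62, 15.01 and 15.59%.

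**Figure D1:**
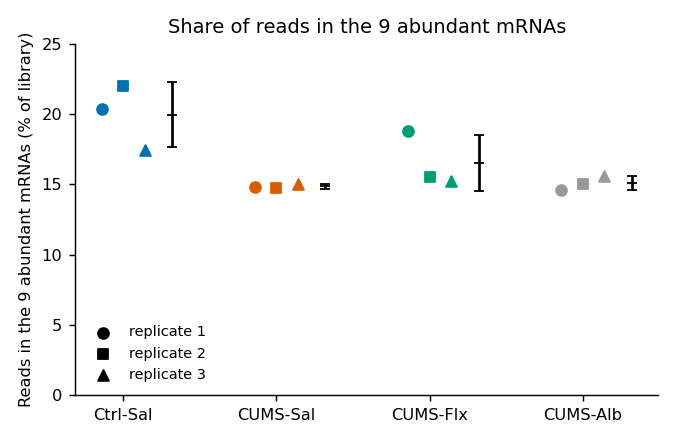
Percent of each library's reads in the 9 abundant mRNAs, by group. Symbols mark replicates and the black bar the mean ± SD of 3 libraries. The Ctrl-Sal libraries sit between 17.44 and 22.03%, above the CUMS-Sal libraries at 14.75 to 15.04%.

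Within this set the fall was not the same for each gene. The largest belonged to the most abundant gene of the table, 1545 bp long, which read 36115, 42959 and 31708 FPKM in the Ctrl-Sal libraries and 25978, 25642 and 23162 FPKM in CUMS-Sal. All stressed libraries lay below all controls, and the log2 change was -0.56 (SE 0.11, limma adjusted p = 0.025). The smallest belonged to the third gene by reads, 1378 bp long, with 16959, 16544 and 13966 FPKM in Ctrl-Sal against 12252, 11529 and 14240 FPKM in CUMS-Sal. Here CUMS-Sal replicate 3 exceeded Ctrl-Sal replicate 3, so the groups overlapped, and the log2 change was -0.32 (SE 0.11, limma adjusted p = 0.0793). The other 8 genes did not overlap between the groups, as was so for 31.1% of all tested genes on the deposited scale, and limma called 6 of the 9 lower, where 1.14% of all tested genes were called lower. With the 9 left out of the scaling, 7 of them were called lower, against 1.82% of all tested genes, at log2 changes of -0.65 to -0.41 over the 9. The share of these same genes sets that scaling, so their further fall is built in and is no second test. In 5 of the 9 genes CUMS-Sal replicate 3 was the highest of its group and in 4 the lowest, and 7 of the 9 had their highest value of all 12 libraries in Ctrl-Sal replicate 2.

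FPKM is relative to the library total, so a smaller share for these mRNAs goes with higher values elsewhere, and most genes were slightly higher in CUMS-Sal. The median log2 change of the 15253 genes was 0.10, and 69.5% were above 0. With the 9 abundant mRNAs left out of the library totals, the median fell to 0.02 and 54.5% were above 0. Under this scaling genes at the 25th and 75th percentile stood at -0.11 and 0.18 on the log2 scale, and those at the 5th and 95th at -0.34 and 0.49. The upper tail was longer than the lower one.

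**Figure D2:**
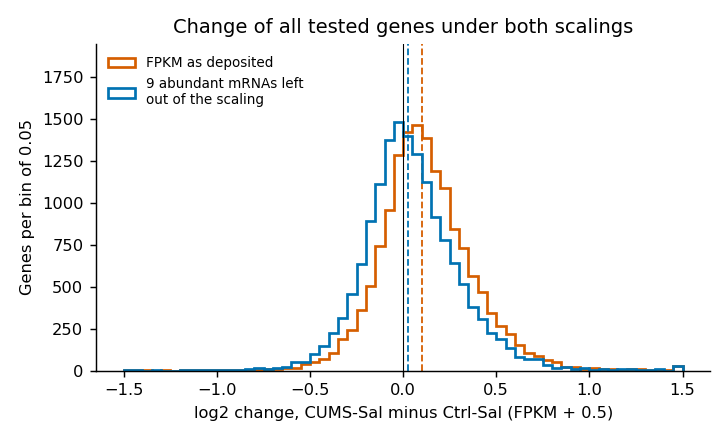
Number of tested genes by log2 change of FPKM + 0.5, CUMS-Sal minus Ctrl-Sal, with values past the ends in the outermost bins. Dashed lines mark the medians, at 0.10 for FPKM as deposited and 0.02 with the 9 abundant mRNAs left out of the scaling.

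The number of genes called and their direction followed that choice. On the deposited scale limma called 1402 genes at a Benjamini-Hochberg adjusted p under 0.05 (9.19% of those tested), 1228 higher (8.05%) and 174 lower in CUMS-Sal. With the abundant mRNAs left out it called 711 (4.66%), of which 434 were higher (2.85%) and 277 lower (1.82%). All 434 higher genes had been called higher before, as 43.4% of the first list and 85.5% of the second were shared in the same direction, and 0 genes were called in opposite directions. The 103 calls made on the rescaled values alone were all lower in CUMS-Sal. When the median deviation of each library was set to 0, the split was 364 higher and 379 lower, and after quantile normalization it was 297 and 232. Across these 4 scalings and limma-voom on recovered reads, 267 genes were called higher in each of the 5 fits and 113 lower in each. In 31.1% of all tested genes on the deposited scale, and 27.7% on the rescaled one, the 3 stressed libraries all lay on one side of the 3 controls.

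Values below are on the rescaled log2(FPKM + 0.5) scale unless FPKM is named, and this scale understates the change of genes at low FPKM. Called changes were mostly small, with a median of 0.54 for the 434 higher genes and -0.41 for the 277 lower ones. Among the higher genes 183 changed by more than 1.5-fold and 52 by more than 2-fold, against 41 and 7 of the lower genes. More than 3-fold was seen in 16 genes, all higher in CUMS-Sal. The called genes were well covered, at a median of 568 reads per library against 270.5 for all tested genes, and 31 of them had a mean under 20 reads.

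The largest rise was that of ENSRNOG00000055936, 678 bp long, which was low in Ctrl-Sal replicates 1 and 2. It read 0.6005, 0.2828 and 3.841 FPKM in Ctrl-Sal replicates 1 to 3 and 5.558, 8.054 and 8.434 FPKM in CUMS-Sal. These values rest on 6, 3 and 42 reads in the controls and 59, 84 and 88 reads in the stressed libraries. The groups did not overlap, and Ctrl-Sal replicate 3 lay well above both other controls. On the deposited scale the log2 change was 2.32 (SE 0.48, limma adjusted p = 0.0276), and rescaled it was 2.26 (adjusted p = 0.0362). On the deposited scale the call was lost without Ctrl-Sal replicate 2 (log2 change 1.82, limma adjusted p = 0.0822), CUMS-Sal replicate 2 (0.0957) or CUMS-Sal replicate 3 (0.0731), and without Ctrl-Sal replicate 3 the log2 change was 3.06. Means in CUMS-Flx and CUMS-Alb, 2.67 ± 1.14 and 3.85 ± 0.245 FPKM (SD, n = 3), lay between those of CUMS-Sal and Ctrl-Sal. Each gene named by ID was chosen for a large difference between CUMS-Sal and Ctrl-Sal. Where the drug groups lie therefore describes such a gene and tests nothing.

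ENSRNOG00000004757, 999 bp long, followed in size and repeated the pattern over the libraries. It read 2.242, 0.8316 and 9.123 FPKM in Ctrl-Sal and 12.91, 15.75 and 18.21 FPKM in CUMS-Sal, from 13 to 147 reads in the controls and 202 to 280 reads in the stressed libraries. Again the third control was the highest of its group and the second the lowest, with no overlap. The log2 change as deposited was 2.29 (SE 0.51, limma adjusted p = 0.0303) and rescaled 2.21 (adjusted p = 0.0409). On the deposited scale it was 1.64 without Ctrl-Sal replicate 2 (limma adjusted p = 0.0849) and without Ctrl-Sal replicate 3 it was 3.06, and leaving out any 1 CUMS-Sal library also ended the call (adjusted p from 0.0562 to 0.0971). CUMS-Flx, at 8.64 ± 2.76 FPKM, and CUMS-Alb, at 9.38 ± 0.438 FPKM (SD, n = 3), again lay between.

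**Figure D3:**
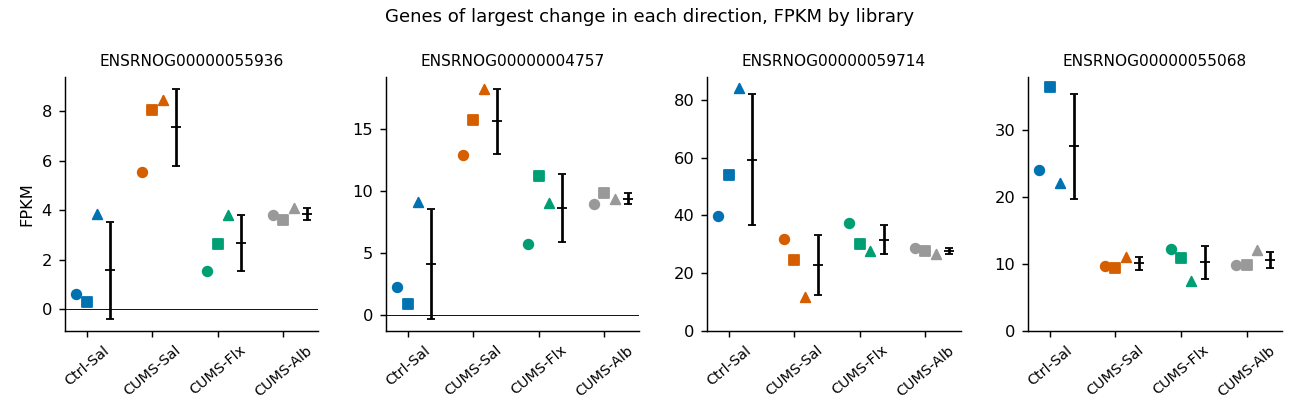
FPKM of the 2 genes of largest rise and the 2 of largest fall, in every library. Symbols mark replicates 1 to 3 (circle, square, triangle) and black bars the mean ± SD of 3 libraries. In the 2 risen genes Ctrl-Sal replicate 3, at 3.841 and 9.123 FPKM, lies above the other controls.

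Among the fallen genes ENSRNOG00000059714, 2758 bp long, changed most, and it varied widely in both groups. It read 39.74, 53.94 and 84.35 FPKM in Ctrl-Sal and 31.93, 24.68 and 11.64 FPKM in CUMS-Sal, all from at least 494 reads. The lowest control lay 7.81 FPKM above the highest stressed library, a gap smaller than the SD of either group, 22.8 FPKM in Ctrl-Sal and 10.3 FPKM in CUMS-Sal. The log2 change as deposited was -1.41 (SE 0.31, limma adjusted p = 0.0298) and rescaled -1.498 (adjusted p = 0.0342). On the deposited scale it was -0.998 without CUMS-Sal replicate 3 (limma adjusted p = 0.0698), and the call was also lost without CUMS-Sal replicate 2 (0.0887) or Ctrl-Sal replicate 2 (0.0881). CUMS-Flx and CUMS-Alb, at 31.6 ± 5.01 and 27.7 ± 1.08 FPKM (SD, n = 3), lay between CUMS-Sal and Ctrl-Sal.

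ENSRNOG00000055068, 768 bp long, fell with less spread. It read 24.03, 36.45 and 22.12 FPKM in Ctrl-Sal and 9.73, 9.311 and 11.08 FPKM in CUMS-Sal, from 272 to 438 reads and 110 to 131 reads. The stressed libraries were close together and far below the controls, of which replicate 2 was the highest. The log2 change as deposited was -1.38 (SE 0.19, limma adjusted p = 0.0161) and rescaled -1.47 (adjusted p = 0.019). On the deposited scale the call held without Ctrl-Sal replicate 2 (log2 change -1.16, limma adjusted p = 0.0158). Without CUMS-Sal replicate 2 the limma adjusted p on that scale was 0.0708. CUMS-Flx and CUMS-Alb, at 10.2 ± 2.51 and 10.6 ± 1.253 FPKM (SD, n = 3), lay within 1 SD of CUMS-Sal.

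The 52 genes that rose over 2-fold were short, with a median length of 779 bp against 2409 bp for all 434 higher genes, and low, with a median of 3.22 FPKM against 11.2. So were the 7 genes that fell over 2-fold, at medians of 768 bp and 2.49 FPKM. All 277 lower genes had medians of 1293 bp and 44.9 FPKM. Of the 52, 6 have no Ensembl ID, against 1346 of all 15253 rows tested. Relative to the Ctrl-Sal mean, the median log2 level of the 52 was 0.18, -0.64 and 0.45 in Ctrl-Sal replicates 1 to 3 and 1.14, 1.41 and 1.34 in CUMS-Sal. Ctrl-Sal replicate 2 was the lowest control in 47 of them and Ctrl-Sal replicate 3 the highest in 40. The same median was 0.59, 0.84 and 0.88 in CUMS-Flx and 1.05, 1.04 and 0.89 in CUMS-Alb. Since these genes were chosen on the CUMS-Sal and Ctrl-Sal libraries, the levels describe them and test nothing. Without Ctrl-Sal replicate 2 the median log2 change of the 52 genes was 1.03, against 1.52 without Ctrl-Sal replicate 3. The 7 genes that fell over 2-fold, chosen in the same way, stood at -0.998, -1.39 and -1.04 in CUMS-Sal, -1.12 to -1.10 in CUMS-Flx and -1.01 to -0.78 in CUMS-Alb.

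Over all called genes, too, Ctrl-Sal replicate 2 was most often the control farthest from the stressed libraries. It was so in 85.7% of the 434 higher genes and 79.4% of the 277 lower ones, and the median log2 level of the higher genes was 0.11, -0.24 and 0.12 in the 3 controls. Leaving it out moved the median change of the higher genes to 0.42 and that of the lower genes to -0.34. The shares of 85.7 and 79.4%, and the like counts among the 52 genes, were not computed over all tested genes. They therefore cannot be read as a trait of the called genes.

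The balance of higher and lower calls differed with gene length. The tested genes were split by length into 5 groups of 3050 or 3051. In the shortest, up to 1202 bp, 87 were called higher and 130 lower, with a median log2 change over the whole group of -0.02. In the next group 66 were higher and 70 lower, in the middle group 71 and 50, and from 2501 to 3623 bp 93 and 17. Among the longest, over 3623 bp, 117 were called higher and 10 lower, at a median of 0.06. On the deposited scale the same order held, but the balance of the shortest group turned, with 187 higher and 102 lower against 334 and 4 in the longest. The rescaled share called was 7.11% in the shortest and 4.16% in the longest group, against 4.66% of all genes.

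Level showed a like split. Of the 3051 genes with the highest FPKM, from 27.6 FPKM up, 85 were called higher and 173 lower, while in the 3 lowest of 5 level groups 231 were higher and 51 lower. The rescaled share called was 8.46% in the highest group. In the 3 lowest it was 1.64, 3.18 and 4.42% from the lowest up, against 4.66% of all genes. As deposited, the highest group held 251 higher and 104 lower genes and the 3 lowest 636 and 39, so here too the lean of the most abundant genes depended on the scaling. Split by both, 1835 genes of up to 1603 bp and over 15.4 FPKM had 42 higher and 142 lower calls rescaled (10.0% called, median log2 change -0.08), but 109 and 103 as deposited and 38 and 192 with library medians centred. Among 1507 genes of that level but at least 2805 bp, 76 were higher and 10 lower rescaled (5.71% called, median 0.01), and 208 and 1 as deposited. At the lowest level, up to 3.71 FPKM, 1856 genes of the same short length had 43 higher and 15 lower calls rescaled (3.12% called), and 79 and 13 as deposited.

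The contrast between long and short genes varied over the single libraries. As a measure, the median log2 deviation of the shortest group from the mean of the 12 libraries was subtracted from that of the longest. This gap was -0.113, -0.006 and -0.044 in Ctrl-Sal replicates 1 to 3 and 0.015, 0.071 and 0.009 in CUMS-Sal. It was smallest in size in Ctrl-Sal replicate 2, the library that stood apart, and largest in Ctrl-Sal replicate 1. The groups did not overlap, at -0.054 ± 0.054 and 0.032 ± 0.034 (SD, n = 3, two-sided exact permutation test, p = 0.1, the lowest it can give). This test was not planned and used the libraries that gave the length split of the calls, so it is no independent support for that split. CUMS-Flx ran from -0.059 to 0.031 and CUMS-Alb from -0.009 to 0.052, so both overlapped with CUMS-Sal and with Ctrl-Sal.

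**Figure D4:**
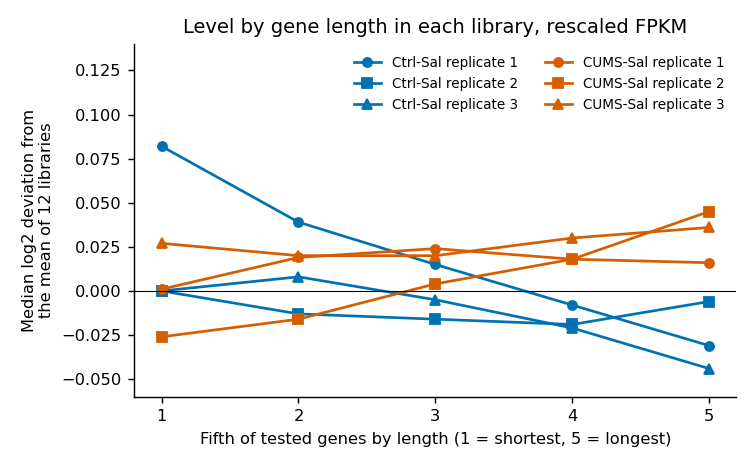
Median log2 deviation of rescaled FPKM + 0.5 from the mean of the 12 libraries, for 5 equal groups of the tested genes by length, 1 line per library. The line of Ctrl-Sal replicate 1 falls from 0.082 to -0.031 and that of CUMS-Sal replicate 2 climbs from -0.026 to 0.045.

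Rows without an Ensembl ID, which carry running numbers, mostly lay at low levels. Of 1346 tested, 21 were called higher and 13 lower (2.53%, median log2 change 0.01), against 4.87% of 13907 rows with an ID (median 0.03). Their level was lower, at a median of 1.35 against 9.36 FPKM. In the lowest of the 5 level groups, which holds most of them, 1.49% of 806 such rows and 1.69% of 2245 rows with an ID were called.

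Rows with reads in every library of 1 group and none in the other had few recovered reads. Over all rows, 48 had reads in all 3 CUMS-Sal libraries and none in Ctrl-Sal, with at most 19 recovered reads in sum, and 33 the reverse, with at most 9. Recovery took the shortest length that fits, so for rows this sparse these sums are lower bounds. At these depths absence and a low level could not be distinguished. A further row, 640 bp long, had 44 reads in Ctrl-Sal replicate 3, 1 in replicate 1 and 0 in the other 10 libraries.

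How many genes passed the test rested on single libraries, and on the libraries of the drug groups. On the rescaled values 711 genes were called with all libraries. Leaving out Ctrl-Sal replicate 2 left 136, 102 higher and 34 lower, and leaving out CUMS-Sal replicate 1 left 155. Without CUMS-Sal replicate 2 limma called 1 gene, which was not among the 711, and without CUMS-Sal replicate 3 it called 0, while 2975 and 3454 genes had an unadjusted p under 0.05. The count rose to 1790 without Ctrl-Sal replicate 3 and to 926 without Ctrl-Sal replicate 1. A limma fit of only the 6 compared libraries called 0 genes, with 3000 at an unadjusted p under 0.05 and a smallest adjusted p of 0.133. The groups that share the spread in the main fit were not alike. On rescaled values the median SD of a gene was 0.152 in Ctrl-Sal, 0.108 in CUMS-Sal, 0.108 in CUMS-Flx and 0.094 in CUMS-Alb. How far this raised the number of calls was not tested.

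**Figure D5:**
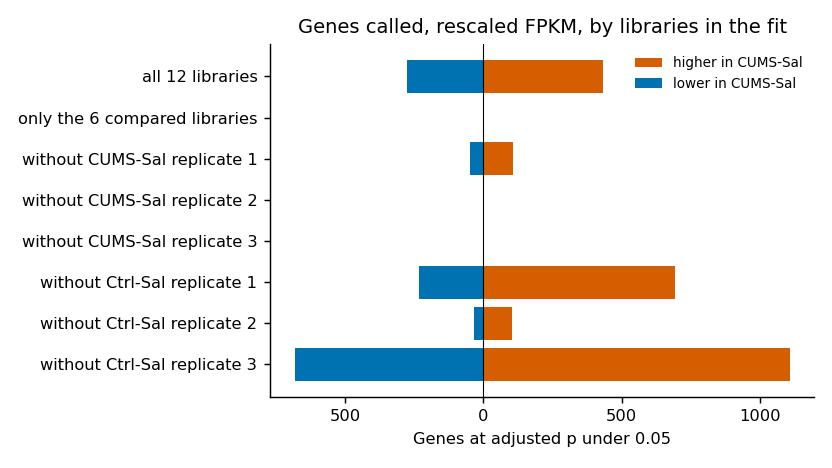
Genes called by limma at an adjusted p under 0.05 on rescaled FPKM, higher in CUMS-Sal to the right and lower to the left, by the libraries in the fit. Bars for fits without CUMS-Sal replicate 2 or 3, or with only the 6 compared libraries, hold 1, 0 and 0 genes.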

How the data were processed

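Hippocampal RNA was sequenced. TopHat2 and build rn6 are named, per the submitters' processing notes. For the counter, annotation and strand setting the sources used here give nothing, so overlapping genes and near-identical copies could not be set apart. The authors deposited FPKM without a unit in the header. FPKM was read from the values, which are whole multiples of 1 read's worth for 22737 of 22737 rows above 0 (within 0.0001 of a read). Lengths and reads were recovered from these steps, taking the shortest length that gives whole reads in every library.

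Samples were grouped by title. On log2(FPKM + 0.5), limma 3.58.1 (R 4.3.3, trend and robust) fitted 1 coefficient per group over 12 libraries and 15253 rows, with Benjamini-Hochberg adjustment over all rows, and a gene was called at an adjusted p under 0.05. For the rescaled values, each library's FPKM were divided by its share of reads outside the 9 abundant mRNAs, relative to the mean share. Single values per library were compared by exact permutation. Replicate pairs varied beyond counting noise by chi-square, so none was merged. Scripts were tested on simulated data.

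Named genes were to be those called in the same direction on both scales, not overlapping on deposited FPKM, with at least 2 FPKM in the higher group, by size of change. With no names matched, the first 2 IDs per direction of 386 higher and 162 lower genes are given. Members and lists were chosen with earlier results of these data known. The alternatives tried were other normalizations, filters, pseudocounts, variance models, library sets and a replicate block. Figures were drawn with matplotlib 3.10.9.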

Additional observations from a re-analysis of the deposited data

How the results depend on the processing

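The 1402 calls on the deposited scale became 740 without trend and robust settings, 529 after quantile normalization, 743 with library deviations centred, 251 without a filter, 711 with the abundant mRNAs left out of the scaling and 3173 at an adjusted p under 0.1. With only the 6 compared libraries limma called 0 (3529 at an unadjusted p under 0.05), and limma-voom with all libraries called 1863. Leaving out 1 library gave 1 to 2637 genes, and for the 711 rescaled calls 0 to 1790. The cause of these differences was not tested. Same-numbered Ctrl-Sal and CUMS-Sal libraries did not deviate together (correlations -0.082, -0.077 and -0.013). They share only a number, and with the replicate block 565 genes were called as deposited, and 101 on rescaled values. Pseudocounts of 0.1 and 1 stayed within 1.5 times of both counts, as did a minimum mean of 5 FPKM and array weights for the 1402. No alternative that was run reversed any of the 4 named genes, whose choice by non-overlap fixes the direction when 1 library is left out. ENSRNOG00000055936 lies below the minimum mean of 5 FPKM and has no value there. Each lost its call with only the 6 libraries (adjusted p from 0.126 to 0.129) and without CUMS-Sal replicate 2 (0.0708 to 0.0971), and 3 of the 4 without a filter (0.0517 to 0.0569) and without Ctrl-Sal replicate 2 (0.0822 to 0.0881). The medians of gene lists and the share over all mitochondrial mRNAs were not run, since no names were matched.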
